A study of Homo sapiens with 9 samples.

Results

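Cadherins are the membrane proteins that hold neighbouring cells together at adherens junctions, and catenins are the proteins that tie them to the actin cytoskeleton. Described here are 10 such genes, chosen by name from the 21417 gene symbols of the deposited table. The 5 cadherins are CDH1 (E-cadherin), CDH2 (N-cadherin), CDH3 (P-cadherin), CDH6 and CDH11. The 5 catenins are CTNNA1 and CTNNA2 (alpha-catenins), CTNNB1 (beta-catenin), and CTNND1 and CTNND2 (p120 and delta-catenin). Each gene was represented by its transcript with the highest mean over all libraries, and all 10 passed the minimum mean of 0.5 RPKM (read density per length of transcript and per size of library) that 14473 genes met.

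The cells were H9, an established human embryonic stem cell line, in 3 groups of 3 libraries. Undifferentiated cells (hESC, day 0) were grown on Matrigel in mTeSR1 medium. Neuroectoderm, the precursor of the nervous system, was made over 5 days with 200 nM NOGGIN, a BMP antagonist, and 10 µM SB431542, an inhibitor of activin and Nodal receptors. Mesendoderm, the precursor of mesoderm and endoderm, was made over 5 days with 5 ng/ml hBMP4 in mTeSR1. All 3 groups come from 1 line. Separate cultures behind the libraries of a group are not stated in the labels, and p-values thus measure only the spread between these libraries, which may be technical.

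In a cadherin, the part outside the cell binds a cadherin on the next cell, while the tail inside binds beta-catenin and p120. Alpha-catenin links beta-catenin to actin, p120 and its relatives hold cadherins at the membrane, and beta-catenin also acts in the nucleus as the effector of WNT signalling. Pluripotent cells and early epithelia carry E-cadherin. In the embryo, E-cadherin gives way to N-cadherin both when the neural plate forms and when cells leave the primitive streak as mesoderm, a change known as the cadherin switch.

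Of the 10 genes, 5 had an entry in the RefSeq promoter table (build GRCh38.p14): CDH2, CTNNA1, CTNNA2, CTNNB1 and CTNND2. The upstream sequences of CTNNA2 and CTNND2, the alpha- and delta-catenins of neural tissue, are shown because these were the members that rose in neuroectoderm and fell in mesendoderm. They run 5′ to 3′ along the gene, leave out bases within annotated exons, and carry CG dinucleotides in capitals. The CTNNA2 stretch is chr2:79512801-79512999 on the plus strand, and the CTNND2 stretch is chr5:11904447-11904696 on the minus strand.
CTNNA2: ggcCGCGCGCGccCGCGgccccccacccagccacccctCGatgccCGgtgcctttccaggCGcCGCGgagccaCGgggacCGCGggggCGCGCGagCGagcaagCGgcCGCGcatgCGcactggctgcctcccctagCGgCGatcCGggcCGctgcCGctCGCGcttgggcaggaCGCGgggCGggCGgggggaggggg
CTNND2: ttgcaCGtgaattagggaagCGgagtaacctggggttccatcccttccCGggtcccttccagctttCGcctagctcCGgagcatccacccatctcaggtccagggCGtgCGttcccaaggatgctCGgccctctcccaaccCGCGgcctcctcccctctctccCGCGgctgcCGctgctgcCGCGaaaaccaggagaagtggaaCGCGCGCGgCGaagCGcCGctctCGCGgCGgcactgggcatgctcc
The CTNNA2 stretch holds 33 CG dinucleotides in 199 bases, with a GC content of 82.4%, and the CTNND2 stretch holds 25 in 250 bases, with a GC content of 67.2%. Over the full window of 250 bases before the start, CTNNA2 has 39 CG dinucleotides and CTNND2 has 25, against a median of 11 over 35116 promoters. Fewer CG dinucleotides were found in 97.3% and 78.4% of those promoters. The windows shown are those nearest the start of the deposited transcripts. The table holds 3 further CTNNA2 windows with 2 CG dinucleotides each, more than in 14.7% of promoters, and 1 further CTNND2 window with 4, more than in 29.3%. The letters CACCTG, or on the other strand CAGGTG, which ZEB and SNAIL repressors bind, occur in 17.5% of promoters. The letters CTTTGAT, or on the other strand ATCAAAG, which TCF/LEF factors bind, occur in 2.26%. Neither was found in the 2 windows shown.

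Values are RPKM, and changes are differences of log2(RPKM + 1) ± SE from limma, with calls made where the adjusted p (Benjamini-Hochberg, over all 14473 genes) was under 0.05. This scale understates the changes of low genes. The denominators of the 9 libraries corresponded to 36.85 to 70.15 M reads. Groups separated along components holding 52.5% and 29.9% of the variance. The libraries hESC 2, neuroectoderm 1 and mesendoderm 1 stood apart along the third component (12.3%), and their deviations from the group means ran against GC content (Spearman -0.62, -0.56 and -0.29 across genes, against 0.19 to 0.59 in the others). Results for the 10 genes are therefore given with and without those libraries where a call differs. Labelled cell types were checked by summed RPKM of marker genes. The 6 pluripotency markers summed to 804 to 880 in hESC, 313 to 325 in neuroectoderm and 342 to 433 in mesendoderm. LIN28A made up most of the neuroectoderm sum, at 264 to 285 RPKM there. NANOG, TDGF1 and L1TD1 were at 0.08 to 0.18, 0.02 to 0.11 and 0.70 to 1.44 RPKM in neuroectoderm and at 7.68 to 18.4, 14.1 to 34.2 and 54.1 to 69.0 in mesendoderm. The 6 neural plate markers summed to 34.7 to 41.0, 212 to 245 and 6.21 to 7.33, with SIX3 under 0.1 RPKM on average in every group. OTX2 made up most of each sum, at 33.4 to 40.1, 172 to 180 and 6.06 to 7.06 RPKM. LHX2 had means of 0.103, 0.123 and 0.063. The 4 neural plate markers that were tested were all called higher in neuroectoderm than in hESC. The 6 primitive streak markers summed to 1.08 to 1.55, 1.31 to 1.52 and 99.0 to 153.7. The 6 mesoderm and amnion markers summed to 1.07 to 1.35, 0.32 to 0.55 and 98.1 to 203.0. Among them GABRP and VTCN1 were at 24.3 to 47.1 and 4.43 to 10.3 RPKM in mesendoderm. Whether a group mixes cell types cannot be told from bulk RNA.

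Neuroectoderm lost both epithelial cadherins and gained N-cadherin. CDH1 stood at 52.0, 52.2 and 59.8 RPKM in the hESC libraries and at 0.38, 0.14 and 0.29 in neuroectoderm. The groups lay far apart, since the lowest hESC library was 136.8 times the highest neuroectoderm library, and the ratio of the means was 202. The change was -5.46 ± 0.12 (adjusted p = 1.61e-08). The neuroectoderm values correspond to about 76, 48 and 58 reads, against 10347 to 13916 in hESC, so they rest on few reads but lie above the limit that 3 reads set. In bulk RNA fewer cells of a type and less RNA per cell cannot be told apart. CDH1 went from a level above 92.7% of tested genes in hESC to one above 3.8% of them.

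CDH2, the cadherin of the neural tube and its neurons, took the opposite course. Its values were 10.6, 10.7 and 9.94 RPKM in hESC and 113.9, 162.3 and 155.0 in neuroectoderm. All 3 neuroectoderm libraries were above all hESC libraries, the means differed 13.8-fold, and the change was 3.65 ± 0.15 (adjusted p = 3.55e-07). In neuroectoderm CDH2 exceeded 96.9% of tested genes and shared the first place among the 10 genes with CTNNB1, whose libraries overlapped its own. In each library, CDH1 was the larger of the pair in hESC, by 4.86 to 6.02 times, and CDH2 the larger in neuroectoderm, by 299.7 to 1159 times. That last ratio has the few CDH1 reads in its denominator, which widens its spread.

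CDH3, the P-cadherin of epithelia and placenta, fell as CDH1 did. It was at 38.9, 27.9 and 39.8 RPKM in hESC and at 1.12, 1.97 and 1.53 in neuroectoderm. The groups did not overlap, the mean was 23.1-fold lower, and the change was -3.84 ± 0.17 (adjusted p = 4.67e-07). CDH3 lies directly beside CDH1 on chromosome 16, as its next protein-coding gene in the RefSeq table. In neuroectoderm the mean levels of CDH1 and CDH3 were 0.270 ± 0.121 and 1.54 ± 0.425 RPKM, and their libraries did not overlap.

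The mesenchymal and kidney-type cadherins rose beside CDH2. CDH6, a type II cadherin of the neural folds and developing kidney, was at 0.51, 0.58 and 0.46 RPKM in hESC and 5.85, 10.3 and 10.3 in neuroectoderm, a change of 2.66 ± 0.27 (adjusted p = 6.0e-05). CDH11, a type II cadherin of mesenchyme and bone, was at 2.03, 1.70 and 2.03 in hESC and 18.9, 21.2 and 22.9 in neuroectoderm, a change of 2.91 ± 0.44 (adjusted p = 0.000668). Neither pair of groups overlapped. Neuroectoderm 1, one of the libraries standing apart, was the lowest of its group for CDH2, CDH6 and CDH11, and without the 3 such libraries the changes were 3.83, 2.93 and 2.93.

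**Figure D1:**
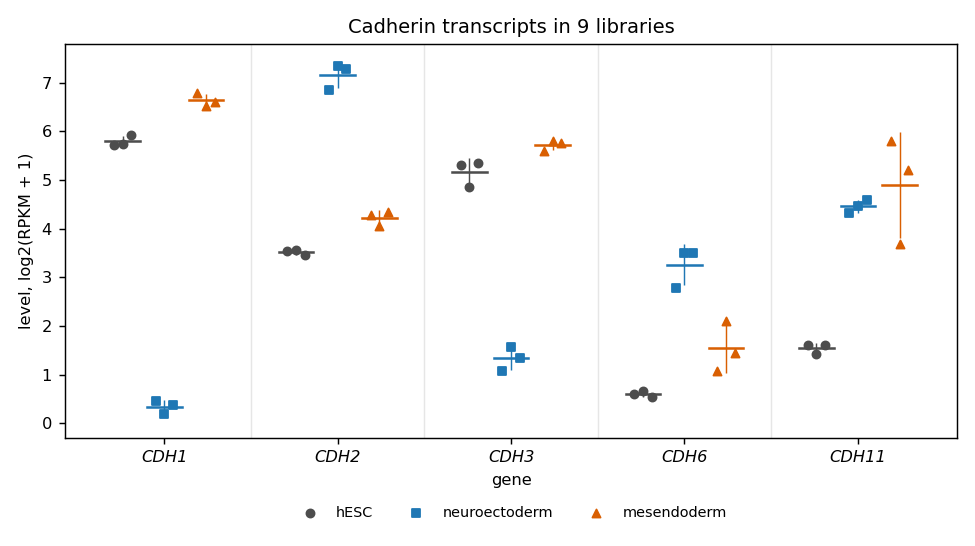
Levels of the 5 cadherins as log2(RPKM + 1) in hESC (circles), neuroectoderm (squares) and mesendoderm (triangles). Points are libraries, horizontal lines group means and vertical lines ± SD (n = 3). CDH1 and CDH3 are low only in the neuroectoderm group of these 3, CDH2 is highest there, and the mesendoderm libraries of CDH11 run from 11.8 to 54.8 RPKM.

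In mesendoderm, transcripts of E-cadherin were not exchanged for those of N-cadherin at day 5. CDH1 was at 109.0, 91.0 and 96.5 RPKM, each above every hESC library, and rose by 0.84 ± 0.12 (adjusted p = 0.000697), a 1.81-fold difference in means. CDH2 was at 18.4, 15.6 and 19.3, also above every hESC library, and rose by 0.71 ± 0.15 (adjusted p = 0.00676), a 1.71-fold difference. Both cadherins thus went up, and CDH1 remained 5.00 to 5.91 times CDH2 in each library. The log2 ratio of CDH2 to CDH1, from RPKM + 1, was -2.28 ± 0.17 in hESC, -2.41 ± 0.13 in mesendoderm and 6.82 ± 0.40 in neuroectoderm (SD, n = 3). CDH3 was at 47.2, 54.9 and 53.6 RPKM in mesendoderm, above hESC without overlap, with a change of 0.55 ± 0.17 (adjusted p = 0.0352). That call was lost when any 1 of the 3 mesendoderm libraries was left out (adjusted p = 0.0530 to 0.105), without hESC 2 (0.104) and without neuroectoderm 3 (0.0559).

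CDH11 was the member with the largest rise in mesendoderm and the widest spread. Its values there were 54.8, 11.8 and 35.8 RPKM against 1.70 to 2.03 in hESC, and the change was 3.35 ± 0.44 (adjusted p = 0.000389). Mesendoderm 2 stood low for this gene. The same library was low for the 6 mesoderm and amnion markers, which summed to 203.0, 98.1 and 168.2 in the 3 mesendoderm libraries and to at most 1.35 elsewhere, with all 6 at a mean of 1 RPKM or more in mesendoderm and HAND1, TBX3, ISL1 and GATA6 under 0.1 in the other groups. It was the highest of the group for pluripotency markers, at 433 against 342 and 372. The 6 primitive streak markers summed to 99.0, 153.7 and 151.2 in the 3 libraries, and thus were not low in mesendoderm 2. Among them MIXL1 and EOMES were highest there (86.8 and 32.0 RPKM), while MESP1 and TBX6 were lowest there (2.34 and 2.84). The part of all these markers in the CDH11 values was not tested. CDH6 was at 1.11, 3.27 and 1.73 RPKM in mesendoderm, highest in the library where CDH11 was lowest, and its rise of 0.94 ± 0.27 (adjusted p = 0.0245) was lost without mesendoderm 2 (adjusted p = 0.0648), without mesendoderm 3 (0.0576) or without any 1 hESC library (0.0549 to 0.0720).

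The makeup of the 5 cadherin transcripts was nearly turned over in neuroectoderm. The summed RPKM was 104.0, 93.1 and 112.0 in hESC, 140.2, 196.0 and 190.1 in neuroectoderm, and 230.5, 176.7 and 207.0 in mesendoderm. CDH1 and CDH3 held 53.1% and 34.3% of it in hESC, 0.165% and 0.870% in neuroectoderm, and 48.5% and 25.8% in mesendoderm. CDH2 held 10.2%, 81.9% and 8.72%. The shares of CDH2 in the single libraries of neuroectoderm lay within 81.2% to 82.8%, although its RPKM ranged from 113.9 to 162.3. CDH11 held 1.86% in hESC, 12.1% in neuroectoderm and 23.8%, 6.71% and 17.3% in the 3 mesendoderm libraries. These shares are descriptions, for which no test was made.

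**Figure D2:**
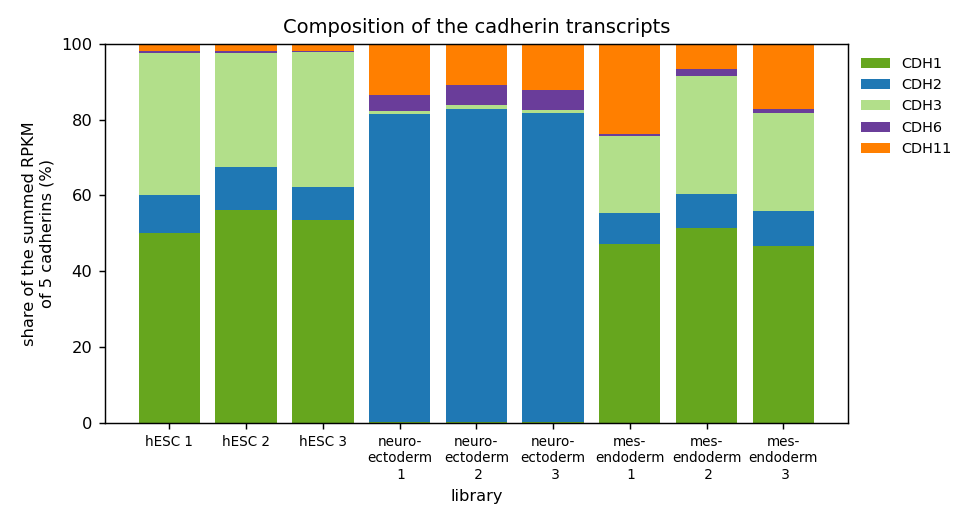
Share of each cadherin in the summed RPKM of the 5 cadherins (%), 1 bar per library. In hESC and mesendoderm CDH1 and CDH3 make up most of each bar, in neuroectoderm CDH2 makes up 81.2% to 82.8%, and the CDH11 share differs between the mesendoderm libraries.

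Among the catenins, the neural members of the alpha and delta families went up in neuroectoderm and down in mesendoderm. CTNNA2, the alpha-catenin of neurons, was at 3.45, 3.90 and 3.82 RPKM in hESC, 8.82, 11.3 and 12.2 in neuroectoderm and 0.94, 1.74 and 0.92 in mesendoderm. No 2 groups overlapped. It rose by 1.31 ± 0.16 in neuroectoderm (adjusted p = 0.000217) and fell by 1.12 ± 0.16 in mesendoderm (adjusted p = 0.000743). CTNND2, the delta-catenin of neurons, was at 2.67, 2.36 and 2.82 RPKM in hESC, 3.62, 7.36 and 6.69 in neuroectoderm and 0.56, 0.98 and 1.05 in mesendoderm, again without overlap. Its changes were 0.89 ± 0.21 (adjusted p = 0.00902) and -0.97 ± 0.21 (adjusted p = 0.00765). Both were detected in undifferentiated cells, so the neuroectoderm levels are a 2.89-fold and a 2.25-fold difference in means from a level already present.

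The ubiquitous alpha-catenin CTNNA1 was at 43.7, 42.1 and 48.8 RPKM in hESC, 24.6, 36.7 and 33.3 in neuroectoderm and 48.8, 52.8 and 50.9 in mesendoderm. It fell in neuroectoderm by 0.51 ± 0.16 (adjusted p = 0.0258), and this call was lost without hESC 1 (0.0598) or hESC 3 (0.0957), and in a fit of those 2 groups alone (0.0655). In mesendoderm its difference of 0.18 ± 0.16 did not pass (adjusted p = 0.414). CTNNA1 stayed the more abundant alpha-catenin in every library, by 10.8 to 12.8 times CTNNA2 in hESC, 2.72 to 3.26 times in neuroectoderm and 30.4 to 55.3 times in mesendoderm. For the p120 family, CTNND1 exceeded CTNND2 by 12.0 to 14.2 times in hESC, 5.64 to 9.42 times in neuroectoderm and 43.6 to 88.9 times in mesendoderm. The neural forms were therefore the minor forms in all 9 libraries.

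CTNNB1 was the most abundant of the 10 genes in hESC and mesendoderm. It was at 128.4, 132.6 and 147.1 RPKM in hESC, 111.5, 138.9 and 139.6 in neuroectoderm and 185.1, 169.9 and 181.5 in mesendoderm. The hESC and neuroectoderm libraries overlapped, and the difference of -0.07 ± 0.15 did not pass (adjusted p = 0.737). In mesendoderm every library was higher than in hESC, but the difference of 0.39 ± 0.15 did not pass (adjusted p = 0.0716), while it did without the 3 libraries standing apart (0.35, adjusted p = 0.0385) and without neuroectoderm 1 alone (adjusted p = 0.0192). CTNND1, which binds the cadherin tail near the membrane, was at 32.0, 33.5 and 35.6 RPKM in hESC, 34.1, 41.5 and 41.8 in neuroectoderm and 49.8, 47.3 and 45.8 in mesendoderm. It rose in mesendoderm by 0.49 ± 0.12 (adjusted p = 0.0126), a call lost when its transcript rows were summed (0.0516) or small RNA was left out (0.178). In neuroectoderm, where neuroectoderm 1 overlapped hESC, the difference of 0.20 ± 0.12 did not pass (adjusted p = 0.203), and without the 3 libraries standing apart it did (0.29, adjusted p = 0.0227). CTNND1 had 22 transcript rows whose means differed at most 1.06-fold, and it shares exons with the readthrough gene TMX2-CTNND1, which is listed at 31.7 to 47.1 RPKM, so reads of the pair cannot be told apart.

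**Figure D3:**
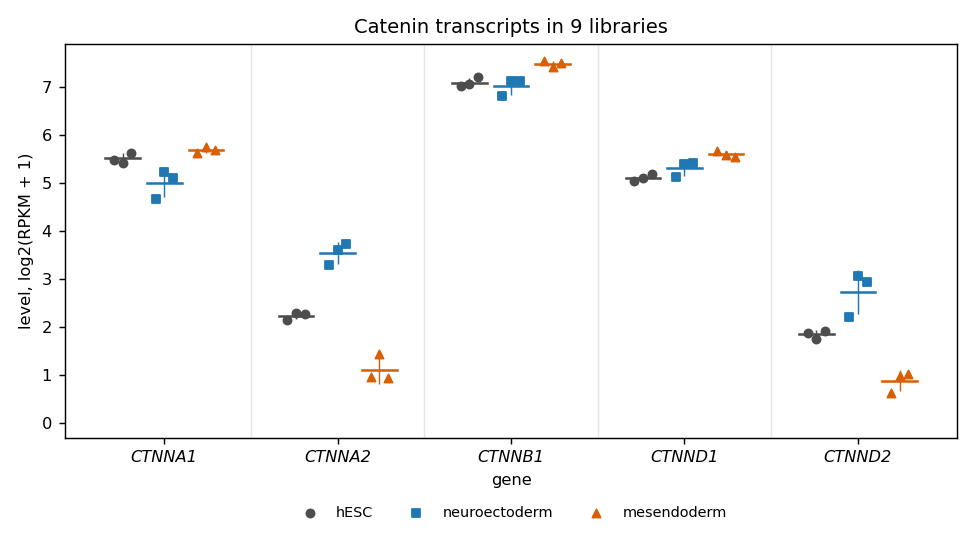
Levels of the 5 catenins as log2(RPKM + 1) in hESC (circles), neuroectoderm (squares) and mesendoderm (triangles), with group means and ± SD (n = 3). CTNNA2 and CTNND2 are highest in neuroectoderm and lowest in mesendoderm, while CTNNA1, CTNNB1 and CTNND1 stay within narrower ranges at higher levels.

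Of the 10 genes, 5 were called higher and 3 lower in neuroectoderm against hESC, where 44.2% of all tested genes were called (21.9% higher and 22.3% lower), and 6 passed with a change of at least 2-fold on the log2(RPKM + 1) scale, against 14.3% of all genes. In mesendoderm against hESC, 6 were higher and 2 lower, where 35.1% of genes were called (17.0% and 18.1%), and 2 passed with at least 2-fold, against 11.5%. The groups did not overlap for 8 of the 10 genes in neuroectoderm against hESC (51.9% of all genes) and for all 10 in mesendoderm against hESC (54.7%). The median absolute change of the 10 genes was 1.98 in neuroectoderm and 0.78 in mesendoderm, against 0.38 and 0.32 over all genes. The median change was 0.54 and 0.52, against -0.02 in both comparisons over all genes. Without the 3 libraries standing apart, 6 were higher and 3 lower in neuroectoderm, where 58.1% of all genes were called, and 7 were higher and 2 lower in mesendoderm, where 47.1% were. Both comparisons share the hESC libraries, so their values are set side by side only.

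Setting the lineages directly against each other, 4 of the 10 genes were higher in neuroectoderm and 4 lower, where 48.1% of all genes were called (24.0% higher and 24.1% lower), and 6 passed with at least 2-fold, against 17.5%. The groups did not overlap for 9 of the 10 genes, as for 57.2% of all genes. CDH2, CDH6, CTNNA2 and CTNND2 were higher, by 2.93 ± 0.15, 1.72 ± 0.27, 2.43 ± 0.16 and 1.85 ± 0.21. CDH1, CDH3, CTNNA1 and CTNNB1 were lower, with differences of -6.30 ± 0.12, -4.39 ± 0.17, -0.69 ± 0.16 and -0.46 ± 0.15 (adjusted p = 4.66e-09, 1.37e-07, 0.00572 and 0.0301). CDH1, CDH3, CTNNA2 and CTNND2 were called in opposite directions in the lineages, with the difference called too, as were 6.10% of all genes. The CTNNB1 call was lost with the replicate number as a block (adjusted p = 0.0647), without any 1 mesendoderm library (0.0581 to 0.0945) and with quantile normalization (0.401). CDH11 overlapped between the lineages and did not pass (-0.44 ± 0.44, adjusted p = 0.433). Without mesendoderm 2 its difference was -1.04 (adjusted p = 0.00283), and without mesendoderm 1 it was 0.02 (adjusted p = 0.976), so single libraries decided that comparison.

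**Figure D4:**
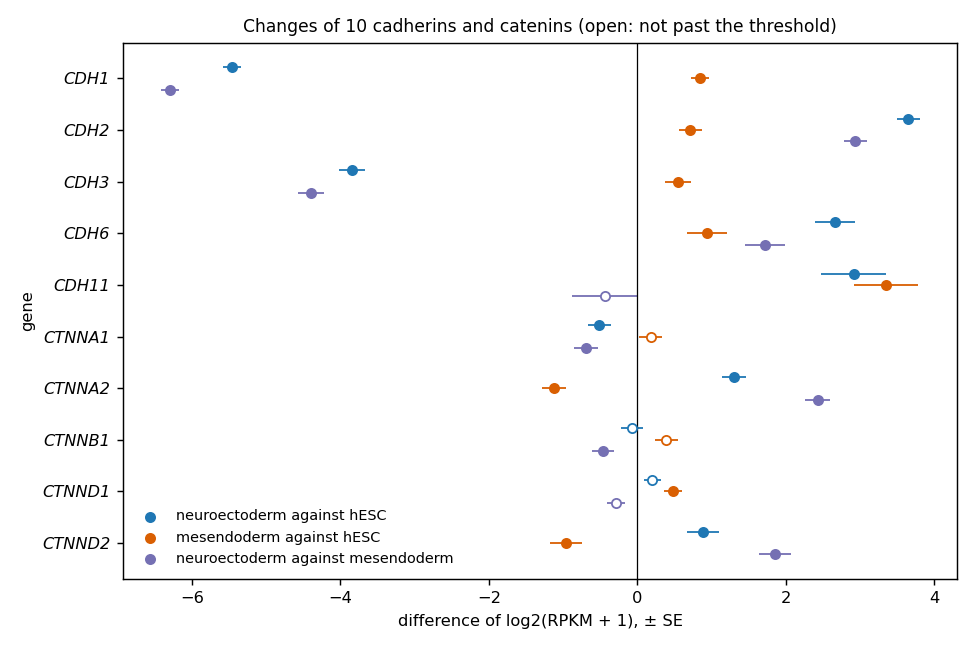
Differences of log2(RPKM + 1) ± SE for the 10 genes in the 3 comparisons, with filled points past the adjusted p threshold and open points not past it. CDH1 and CDH3 lie far left for neuroectoderm and right of 0 for mesendoderm, and CTNNA2 and CTNND2 lie on opposite sides in the lineages. CTNNB1 and CTNND1 stay between -0.46 and 0.49. Of their points, CTNND1 is filled for mesendoderm against hESC and CTNNB1 for neuroectoderm against mesendoderm.

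RPKM is scaled to length, so levels can be ordered within a group. In hESC the order ran CTNNB1, CDH1, CTNNA1, then CDH3 and CTNND1, whose libraries overlapped, then CDH2, CTNNA2, CTNND2, CDH11 and CDH6. In neuroectoderm CDH2 and CTNNB1 led with overlapping libraries, followed by CTNND1 and CTNNA1, which also overlapped, then CDH11, an overlapping run of CTNNA2, CDH6 and CTNND2, and last CDH3 and CDH1. In mesendoderm CTNNB1 and CDH1 led, each apart from its neighbour, CDH3, CTNNA1, CTNND1, CDH11 and CDH2 followed with each neighbouring pair overlapping, and CDH6, CTNNA2 and CTNND2 came last. CDH1 thus moved from second to last place in neuroectoderm and held second place in mesendoderm.

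Several genes followed the cadherins closely across the 9 libraries. Likeness was measured as the mean absolute difference between log2(RPKM + 1) values centred on each gene's own mean, among 13455 genes. Nearest to CDH1 were AP1M2 (0.38), EPCAM (0.40), CD9 (0.51), EPHA1 (0.52) and ESRP1 (0.61), where the median gene differed by 2.60. EPCAM, an epithelial adhesion molecule, was at 29.1 ± 1.20, 0.470 ± 0.139 and 69.1 ± 5.45 RPKM in hESC, neuroectoderm and mesendoderm. Nearest to CDH2 were ZNF503 (0.099), SCD5 (0.17), TXNIP (0.18), TMEM132C (0.20) and MAPK10 (0.20), with a median of 1.48. ZNF503, SCD5, TMEM132C and MAPK10 had hESC means of 0.030, 0.34, 0.17 and 0.97 RPKM, against 10.4 for CDH2. Their neuroectoderm means were 12.3, 12.4, 16.2 and 28.1, against 143.7. The scale understates changes of such low genes, so this likeness depends on the pseudocount of 1, and no other was tried for it. Nearest to CDH11 were MEIS1 (0.34), ENC1 (0.36), RHOU (0.39), ITGA5 (0.39) and RHOB (0.41), with a median of 1.42. MEIS1 was likewise low in hESC, at a mean of 0.093 RPKM against 1.92 for CDH11. ITGA5, the fibronectin receptor subunit, was at 7.77 ± 1.16, 37.9 ± 8.77 and 49.8 ± 21.3 RPKM, with a wide spread in mesendoderm like that of CDH11.

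Of 14 further classical and related cadherins, 8 passed the minimum level. In neuroectoderm 4 of the 8 rose and 1 fell, where 44.2% of all genes were called, with a median change of 0.53. Those that rose were CDH9 (1.64 ± 0.12), CDH24 (1.14 ± 0.23), CDH18 (0.98 ± 0.10) and CDH8 (0.88 ± 0.08), all type II cadherins. CDH4, the R-cadherin of the retina, fell (-0.45 ± 0.12), a call lost without hESC 1 (adjusted p = 0.0540) or hESC 3 (0.0666). In mesendoderm 4 of the 8 were called, against 35.1% of all genes: CDH10 and CDH13 rose by 2.09 ± 0.21 and 0.76 ± 0.09, while CDH9 and CDH8 fell by 0.43 ± 0.12 and 0.28 ± 0.08, and neither fall was secure. The CDH9 call was lost without hESC 1 or 2 or any 1 mesendoderm library (adjusted p = 0.0520 to 0.0775), and the CDH8 call without hESC 1 or 2 or mesendoderm 1 or 3 (0.0512 to 0.0664). CDH10 was at 5.32, 2.22 and 4.07 RPKM in mesendoderm, lowest in the same library as CDH11, and at most 0.27 in the other groups. Among 5 other catenins and relatives, only plakoglobin (JUP), which can take the place of beta-catenin at junctions, passed in any comparison. JUP was at 37.0 ± 4.77 RPKM in hESC, 29.9 ± 9.15 in neuroectoderm and 70.3 ± 4.61 in mesendoderm, and it rose in mesendoderm by 0.91 ± 0.22 (adjusted p = 0.0108).

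Among 12 partners of the adherens junction, 3 rose and 2 fell in neuroectoderm, and 2 rose and 5 fell in mesendoderm, where 44.2% and 35.1% of all genes were called. The median changes were 0.04 and -0.09. AJUBA, a LIM protein that binds alpha-catenin, was at 15.4 ± 1.35 RPKM in hESC, 38.3 ± 4.76 in neuroectoderm and 10.3 ± 0.841 in mesendoderm, and passed in both directions (1.26 ± 0.13 and -0.53 ± 0.13). SHROOM3, which drives the apical constriction of the neural plate, rose in neuroectoderm by 1.01 ± 0.11. ACTN1, an actin cross-linker, fell there by 0.48 ± 0.17, just past the threshold, a call lost without any 1 library except hESC 2 and neuroectoderm 2 (0.0698 to 0.162). LIMA1, an actin-binding partner of alpha-catenin, fell by 0.61 ± 0.11 in neuroectoderm and rose by 1.17 ± 0.11 in mesendoderm. Nectin genes PVRL1 and PVRL2, which encode adhesion molecules beside the cadherins, changed by -0.82 ± 0.12 and 0.66 ± 0.20 in mesendoderm, and PVRL2 also rose in neuroectoderm (0.61 ± 0.20). The PVRL2 call in mesendoderm was lost without any 1 hESC or mesendoderm library (adjusted p = 0.0572 to 0.103), and that in neuroectoderm without any 1 library except neuroectoderm 1 (0.0520 to 0.109).

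Of 7 genes of the complex that marks beta-catenin for destruction, 2 rose in neuroectoderm, and 1 rose and 1 fell in mesendoderm, no larger a share than the 44.2% and 35.1% of all genes called. AXIN2, a scaffold of that complex and itself a target of beta-catenin, was at 8.19, 7.10 and 8.18 RPKM in hESC, 47.3, 87.4 and 85.7 in neuroectoderm and 12.9, 12.6 and 12.4 in mesendoderm. Its change was 3.03 ± 0.21 in neuroectoderm (adjusted p = 7.03e-06), where CTNNB1 transcripts did not differ, and 0.63 ± 0.21 in mesendoderm (adjusted p = 0.0484), which was lost without any 1 hESC or mesendoderm library or neuroectoderm 3 (0.0501 to 0.131). BTRC, which recognises marked beta-catenin, rose in neuroectoderm (0.37 ± 0.11), a call lost without hESC 1 (adjusted p = 0.0872), hESC 3 (0.0730) or neuroectoderm 3 (0.0665). APC fell in mesendoderm (-0.42 ± 0.12), a call lost without hESC 2 or 3 or mesendoderm 2 or 3 (0.0544 to 0.0956).

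A list of 11 genes held both repressors of E-cadherin and factors of epithelial cells, so its counts mix opposite roles. Of the 11, 3 rose and 5 fell in neuroectoderm, where 44.2% of all genes were called, and 6 rose and 2 fell in mesendoderm, where 35.1% were. The repressor ZEB2 was at 0.31, 0.36 and 0.19 RPKM in hESC, 14.0, 12.3 and 13.3 in neuroectoderm and 1.96, 0.28 and 1.57 in mesendoderm, a change of 3.46 ± 0.27 in neuroectoderm. ZEB1 likewise rose there, from 0.247 ± 0.0586 to 4.03 ± 0.446 RPKM (2.01 ± 0.15). SNAI2 was at 1.55, 1.87 and 2.43 RPKM in neuroectoderm (1.34 ± 0.46, adjusted p = 0.0425), a call lost without any 1 hESC library, neuroectoderm 2 or 3, or mesendoderm 3 (0.0614 to 0.115). SNAI1 went the other way, to 1.31, 1.10 and 1.29 RPKM (-0.94 ± 0.31, adjusted p = 0.0340), a call lost without any 1 hESC library or neuroectoderm 2 or 3 (0.0640 to 0.101). The epithelial splicing factor ESRP1 fell from 46.1 ± 3.78 to 0.180 ± 0.0557 (-5.32 ± 0.12), and the epithelial transcription factor GRHL2 from 10.8 ± 0.702 to 0.150 ± 0.0624 (-3.35 ± 0.09). The epithelial factors OVOL1 and OVOL2 fell with them (-0.94 ± 0.11 and -1.76 ± 0.21). All neuroectoderm libraries were thus high for both ZEB genes and low for CDH1, ESRP1 and GRHL2.

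In mesendoderm the SNAIL family rose while CDH1 did not fall. SNAI1 was at 17.6, 6.41 and 17.0 RPKM against 3.06 to 3.74 in hESC, a change of 1.66 ± 0.31 (adjusted p = 0.00302). SNAI2 was at 10.7, 1.39 and 5.36 against 0.10 to 0.20, a change of 2.28 ± 0.46 (adjusted p = 0.00493). Mesendoderm 2 was lowest for both, as it was for CDH11, CDH1 and CDH2. TWIST1 rose to 1.50 ± 0.420 RPKM (1.26 ± 0.12), and GRHL2 rose too, from 10.8 ± 0.702 to 25.7 ± 1.56 (1.18 ± 0.09). The epithelial factors OVOL1 and OVOL2 were also called higher (0.56 ± 0.11 and 0.64 ± 0.21, adjusted p = 0.00491 and 0.0425), OVOL2 close to the threshold. ESRP1 and the E-box factor TCF3 fell by 0.46 ± 0.12 and 0.75 ± 0.21, calls lost without mesendoderm 1 or 3 for ESRP1 (adjusted p = 0.0565 and 0.0639), and without either of these or hESC 1 or 3 for TCF3 (0.0672 to 0.0881). ESRP1 was at 33.3 ± 4.41 RPKM in mesendoderm, against 46.1 ± 3.78 in hESC. Mesendoderm thus held transcripts of E-cadherin, its SNAIL repressors and the epithelial factors GRHL2 and ESRP1 together. Whether they were in the same cells cannot be told from bulk RNA.

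**Figure D5:**
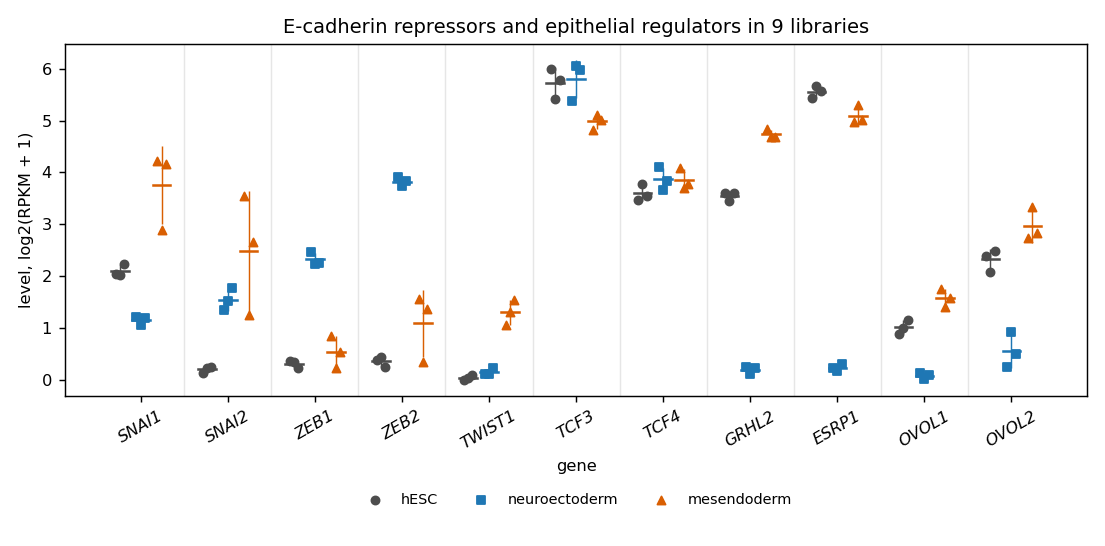
Levels of 11 E-cadherin repressors and epithelial regulators as log2(RPKM + 1) in the 9 libraries, with group means and ± SD (n = 3). ZEB1 and ZEB2 are highest in neuroectoderm, SNAI1 and SNAI2 highest on average in mesendoderm with 1 low library, and GRHL2 and ESRP1 near 0 only in neuroectoderm of these 3 groups.

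Markers of other cell types were summed as well. The 6 neural crest markers, of interest because CDH6 and CDH11 are used by that lineage, summed to 39.7 to 42.2 RPKM in hESC, 16.0 to 21.4 in neuroectoderm and 28.9 to 31.1 in mesendoderm. Within that list TFAP2B was at 0.01 to 0.03, 1.55 to 1.86 and 0.33 to 0.48 RPKM, and NGFR at 1.57 to 1.72, 3.14 to 5.70 and 3.05 to 4.83. The 6 neuron markers summed to 31.0 to 55.0, 11.8 to 25.8 and 20.5 to 26.2. TUBB3 alone was at 18.8 to 44.4 RPKM in hESC, 2.64 to 18.1 in neuroectoderm and up to 19.7 in mesendoderm. STMN2 moved in the direction of CTNNA2 and CTNND2 in both lineages, at 1.44 to 1.84, 2.72 to 3.48 and 0.31 to 0.82 RPKM (changes of 0.62 ± 0.14 and -0.80 ± 0.14, adjusted p = 0.00533 and 0.00191). ELAVL3 was at 0.26 to 0.31, 0.55 to 1.14 and 0.04 to 0.10 RPKM, and its mean was under the minimum for testing. Of the 4 neuron markers tested, however, only STMN2 was called higher in neuroectoderm, and 3 were called lower (TUBB3, RBFOX3 and SYT1). SYT1 was at 6.55 to 8.78, 3.57 to 4.54 and 5.45 to 5.99 RPKM, and RBFOX3 at 1.09 to 2.12, 0.18 to 0.47 and 0.3 to 0.65. SNAP25, also not tested, was at 0.39 to 0.46 RPKM in mesendoderm and at most 0.21 in the other groups. The 4 trophoblast markers in the table summed to 4.83 to 7.20, 0.27 to 0.60 and 24.1 to 29.9, almost all of it KRT7, with CGA under 0.1 RPKM in mesendoderm. The 6 endothelial markers summed to 6.97 to 7.82, 9.24 to 12.0 and 1.94 to 2.23, with PECAM1 under 0.1 in each group. Most of each sum was TEK, at 5.35 to 5.97, 8.36 to 11.3 and 1.57 to 1.68 RPKM, while TIE1 was called lower in both lineages. No marker was at 0 in all libraries of a group, and the part of such cells in the members' levels was not tested.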

How the data were processed

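Total RNA of 9 H9 libraries, 3 per group, was depleted of ribosomal RNA and made into Ion Torrent libraries, per the labels' protocols. The authors deposited RPKM values for 38759 RefSeq transcript rows. TopHat, TopHat2 2.0.13, Bowtie2 and hg19 are taken from the submitters' processing notes. How reads were counted, with what use of strand and of reads matching several places, and what formed the RPKM denominator was not given in the sources used here. Antisense partners and genes sharing exons are therefore uncertain.

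For each of the 21417 symbols the transcript of highest mean was kept. The 14473 genes whose mean reached 0.5 RPKM were analysed as log2(RPKM + 1) in 1 linear model with group as its term, over all 9 libraries, with limma 3.58.1 in R 4.3.3 (mean-variance trend, Benjamini-Hochberg adjustment). The values are not counts, so no count test was used. Low values of small RNA hairpins were whole multiples of 1 read, within 0.1 of a read for 96.4% to 99.4% of 137 to 169 values per library. These steps gave the denominators, and 3 reads on 1 kb amount to 0.0428 to 0.0814 RPKM. Such limits cover counting error only. No 2 libraries were identical. Same-numbered neuroectoderm and mesendoderm libraries deviated together (correlations 0.39, 0.25 and 0.23), but the labels state no pairing. Only 1 of all 9 libraries was closest to its own number. Neuroectoderm 1 and mesendoderm 1 both deviated against GC content, and the part of this in the correlations was not tested. The changes given here thus use no pairing, and a replicate block was fitted only as an alternative. The script was tested on simulated data.

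The 10 members and all gene lists were chosen with earlier results of these data known. Named are all members, up to 4 genes per list and comparison with the largest called change, and the 5 nearest patterns to CDH1, CDH2 and CDH11. CDH4, ACTN1, OVOL1, OVOL2 and TCF3, and SNAI1 and SNAI2 in neuroectoderm and ESRP1 in mesendoderm, and the single cell type markers given with values, were added after their values were seen. A list of genes for cadherin cleavage is not reported here. Promoter sequences came from RefSeq tables of GRCh38.p14, not the build of the reads, and no coordinates were converted. Alternatives covered the pseudocount, the minimum level, scaling, the model, the choice of transcript and the omission of libraries.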

Additional observations from a re-analysis of the deposited data

Results flagged for a closer look

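For 4 of the 10 genes both lineages were called in opposite directions against hESC, and the difference between the lineages passed limma's threshold (Benjamini-Hochberg adjusted), as for 6.10% of all tested genes. The change in neuroectoderm minus that in mesendoderm was -6.30 for CDH1 and -4.39 for CDH3, and 2.43 for CTNNA2 and 1.85 for CTNND2. CDH1 and CDH3 fell in neuroectoderm and rose in mesendoderm, while CTNNA2 and CTNND2 did the reverse. The rise of CDH3 in mesendoderm was lost under 8 of the 21 alternatives. Both changes of a gene share the same hESC libraries.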

How the results depend on the processing

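Alternatives numbered 21 for each comparison against hESC. Neuroectoderm against mesendoderm had 22, with the block fitted on those 2 groups alone added. Of the 30 changes of the 10 genes, 21 kept their direction and call under all alternatives, 5 lost the call in at least 1, 3 gained it and 2 changed sign. Both sign changes were in differences that had not passed: CTNNB1 in neuroectoderm against hESC (0.14 with quantile normalization, 0.018 without the 3 libraries standing apart, and -0.13 to 0.035 when each library was left out in turn, the highest without neuroectoderm replicate 1) and CDH11 in neuroectoderm against mesendoderm (0.086 without the 3 libraries, and -1.04 to 0.016 when each library was left out, the extremes without mesendoderm replicates 2 and 1). Leaving small RNA out and rescaling moved the median of all genes by -0.10 in neuroectoderm and -0.11 in mesendoderm against hESC, and the share of calls that were higher from 49.5% to 36.9% and from 48.4% to 38.1%. Under it, CDH3 and CTNND1 were not called in mesendoderm (adjusted p = 0.0796 and 0.178). With a pseudocount of 0.1 the CDH1 change in neuroectoderm was -7.26, and the CDH3 rise in mesendoderm did not pass (adjusted p = 0.0677). The replicate numbers do not pair hESC with either lineage (correlations of same-numbered deviations -0.74 to 0.40, with 1 of all 9 libraries closest to its own number). With the replicate block, members called higher and lower were 5 and 3, 5 and 2, and 4 and 3 in the 3 comparisons, out of 5643, 4224 and 6250 genes called. In neuroectoderm against mesendoderm the block changed the call of CTNNB1 (adjusted p = 0.0647) and of no other member. So did a block fitted on those 2 groups alone, chosen after seeing the data (0.0881, with 6731 genes called). No count of called members or genes moved by over 1.5 times. Depth limits CDH1 in neuroectoderm, at 48 to 76 reads. The causes of these shifts were not tested.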
